A study of Rattus norvegicus with 52 samples.

Results

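Liver of clofibric acid treated rats was compared between stained sections and entire sections, with 12 stained-section and 14 entire-section arrays out of the 52 arrays of the series. The arrays were chosen by their labels alone. All animals were F344 rats, an inbred laboratory strain, given clofibric acid (CA) at 0.29% or 0.54%. At 0.29% CA there were 7 stained and 8 entire sections, and at 0.54% CA there were 5 stained and 6 entire sections. Untreated F344 rats, with 8 stained and 8 entire sections, served as a second comparison of the same kind that shares no array with the first. The labels do not give the age of the rats, the route or length of treatment, the stain, whether samples of a group came from separate animals, or whether any liver gave sections of both kinds. The p-values therefore measure the spread between these samples, part of which may be technical.

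CA is a fibrate, a lipid-lowering drug that activates the nuclear receptor PPARα and in rodent liver raises genes of fatty acid oxidation. The series is about laser capture microdissection of liver, a method in which cells are cut from a thin section under a microscope. Sections for that method are stained and dehydrated first, so that cells can be recognised, and RNA can be lost or broken in the solutions. Labelling for arrays of this type starts at the 3' end of a transcript, so broken RNA gives less signal from probes toward the 5' end. The contrast of stained with entire sections compares sections labelled by their preparation, with the drug present in both arms. The labels do not say whether RNA input, amplification and labelling were the same for stained and entire sections. The part of such steps in the differences was not tested. The words "after staining" below therefore mean in stained relative to entire sections, and do not name staining as the cause.

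The array held 8740 probe sets besides 59 control rows, each with 1 deposited intensity per sample. A probe set is a group of short probes for 1 transcript sequence. The deposited table gives no gene names, and the sequence names inside the probe set IDs matched no entry of the gene table used here, so results are given by probe set ID and by groups of IDs, and the liver identity of the samples could not be checked against marker genes. Differences below are stained minus entire on the log2 scale after quantile normalization, with dose as a covariate. A probe set was called at a Benjamini-Hochberg adjusted p under 0.05 in limma, a linear model that shares information on the spread between probe sets.

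The control rows showed less signal from the 5' side of transcripts after staining. The 3'/5' ratio of GAPDH, the signal of its 3' probe set over that of its 5' one, rises when 5' signal is lost. GAPDH is a glycolytic enzyme whose transcript is used to judge RNA quality. Its ratio was 1.2, 1.18, 1.24, 1.40, 1.67, 2.65, 5.07 and 1.29 in entire sections at 0.29% CA, and 1.25, 1.91, 2.37, 2.12, 6.49 and 2.21 at 0.54% CA. In stained sections it was 7.32, 10.3, 5.48, 3.48, 9.85, 6.02 and 9.26 at 0.29% CA and 4.47, 10.9, 2.59, 11.6 and 3.21 at 0.54% CA. The groups overlapped, since 6 of the 12 stained arrays lay within the range of the entire ones. The mean log2 ratio was 2.65 ± 0.756 (SD, n = 12) in stained and 0.97 ± 0.771 (SD, n = 14) in entire sections, a dose-adjusted difference of 1.68 or 3.20-fold. An exact permutation test of the preparation labels within each dose, two-sided, gave p = 6.22e-05, adjusted 0.000211 over 17 measures. The same ratio for beta-actin, a cytoskeletal protein, had a median of 5.79 (3.49 to 10.9) in 12 stained arrays and 1.89 (1.11 to 7.66) in 14 entire arrays. Its log2 difference was 1.53 (exact permutation p = 5.28e-05, adjusted 0.000211). In untreated liver the log2 differences were 2.51 for GAPDH and 1.30 for beta-actin.

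**Figure D1:**
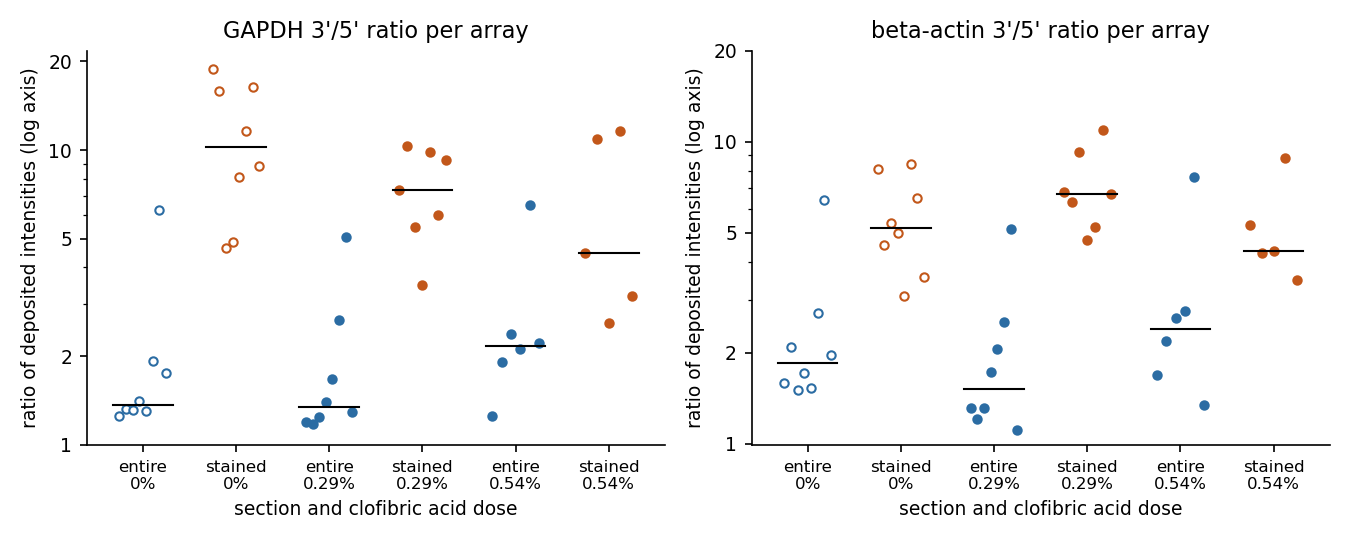
3'/5' signal ratio of GAPDH (left) and beta-actin (right) on a log axis, 1 point per array, by section and dose, with the group median as a bar and untreated liver as open points. Stained groups lie higher than entire groups, but entire sections include arrays at 5.07 and 6.49 for GAPDH and stained sections at 0.54% CA include 1 at 2.59.

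Of the 3 GAPDH probe sets, the one at the 5' end passed as lower after staining over the treated arrays of both doses. The 5' GAPDH probe set had a median deposited intensity of 239.5 (52 to 1048) in stained and 1298 (198 to 2380) in entire sections, and it was 3.81-fold lower after normalization (log2 -1.93, exact permutation adjusted p = 0.00264, n = 12 and 14). The middle probe set differed by -1.2 (exact permutation adjusted p = 0.0609) and the 3' probe set by -0.44 (exact permutation adjusted p = 0.135), and neither passed the test. Beta-actin was lower at all 3 places. Its 5' probe set differed by -3.24, its middle one by -2.95 and its 3' one by -1.81 (exact permutation adjusted p = 5.43e-05, 2.86e-05 and 7.25e-05, n = 12 and 14). The middle beta-actin probe set had medians of 142.5 (37 to 472) against 1380 (320 to 2270), and after normalization 3 of 12 stained arrays lay within the range of the entire ones. The middle probe set of hexokinase, which phosphorylates glucose, was also lower (log2 -1.61, exact permutation adjusted p = 0.000896), by a size that depends on the floor, since 8 of 12 stained arrays were above it. All these dose-adjusted differences had the same sign on the deposited scale, with and without centring each array on its median. With centring, the 3' GAPDH difference was only -0.06.

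Spike-in controls, transcripts of bacteria and a phage that are added to each sample, went the other way. The bioB control had medians of 206.5 (86 to 1078) in stained and 110.5 (47 to 443) in entire sections, a log2 difference of 1.26 (exact permutation adjusted p = 0.00555, n = 12 and 14). The bioC and bioDn controls differed by 1.13 and 0.95 (exact permutation adjusted p = 0.00555 and 0.0042), and Cre by 0.37 (exact permutation adjusted p = 0.0867). The floor was set at 4, the 10th percentile of the positive intensities. Above it lay 63.7% ± 2.16 (SD, n = 12) of probe sets on stained arrays. On entire arrays it was 67.2% ± 1.67 (SD, n = 14), a difference that passed (exact permutation adjusted p = 0.000216). The share of signal taken by the 50 brightest probe sets was higher after staining, at 21.6% ± 4.63 (SD, n = 12) against 16.6% ± 3.39 (SD, n = 14; exact permutation adjusted p = 0.0042). The 5S ribosomal RNA probe set differed by 0.53 on the log2 scale and the mean intensity by -1.24, and neither passed (exact permutation adjusted p = 0.275 and 0.849). The part of these measures in the differences below was not tested beyond the GAPDH-adjusted fit given there.

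Replicates were less alike after staining. The median correlation between arrays of a group was 0.913 and 0.929 in stained sections at 0.29% and 0.54% CA, and 0.958 and 0.959 in entire sections. The median SD of the 2704 probe sets with a mean intensity above 50 was 0.510 and 0.400 on the log2 scale in stained sections, and 0.303 and 0.338 in entire ones. On the first principal component, with 31.2% of the variance of the 26 arrays, all entire arrays but 1 lay at -10.2 or lower and all stained arrays but 1 at 4.48 or higher. The exceptions were entire replicate 6 at 0.29% CA, at 9.59, and stained replicate 3 at 0.54% CA, at -1.30. The second component, with 11.9%, set apart stained replicate 7 at 0.29% CA (83.0), entire replicate 6 at 0.54% CA (50.6) and stained replicate 5 at 0.54% CA (35.4), against 16.6 or less for the other arrays. Without those 3 arrays, a choice made after seeing the data, the contrast below called 2657 probe sets, 2225 of them among the calls with all arrays. Each of the 3 was the last-numbered array of its group. The last-numbered array also had the highest deposited bioB intensity of its group at 0%, 0.29% and 0.54% CA. It was 255, 248 and 443 in entire and 795, 1078 and 433 in stained sections. The last-numbered entire array at 0.29% CA was not set apart on the second component (-0.89). Whether the numbers mark a shared run is not in the labels and was not tested.

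Stained and entire sections of treated liver differed at 2372 of 7963 probe sets tested, or 29.8%, of which 1293 were higher and 1079 lower after staining. At least 2-fold changes numbered 346 higher and 641 lower, so the larger changes were more often falls. The median difference over all probe sets tested was 0.08, with quartiles at -0.25 and 0.39. The split of directions depended on the scaling. On the deposited scale with each array centred on its median, 72.5% of 3463 calls were higher, against 54.5% here, and the median of all probe sets was 0.28. When each array's GAPDH ratio was added to the model, called the GAPDH-adjusted fit below, 468 probe sets were called, 216 higher and 252 lower. That ratio and the preparation move together, so that fit cannot tell them apart fully. In a sample of mixed cells, fewer cells of a type and less RNA per cell cannot be told apart.

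The largest called rises and falls among probe sets above the floor on all 26 arrays were x05472cds#3_f_at and rc_aa874941_at, and m22359mrna_s_at and m11710cds_s_at. Probe set rc_aa874941_at had intensities of 77, 137, 149, 82, 142, 195 and 55 in stained sections at 0.29% CA and of 215, 248, 57, 69 and 127 at 0.54% CA. Its 14 entire arrays lay between 18 and 44 with a median of 27. No stained array overlapped the entire ones, and the difference was 5.04-fold (log2 2.33 ± 0.22, SE, limma adjusted p = 2.28e-08, n = 12 and 14). Probe set x05472cds#3_f_at had a median of 80 (36 to 508) in stained and 26.5 (8 to 68) in entire sections. The groups overlapped, with 3 stained arrays within the range of the entire ones after normalization, and the difference was 5.13-fold (log2 2.36 ± 0.35, SE, limma adjusted p = 1.25e-05).

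Probe set m11710cds_s_at was among the brighter ones in entire sections and lost most of its signal after staining. Its entire arrays read 2700, 2593, 2752, 2198, 2504, 855, 2287 and 3069 at 0.29% CA and 2492, 2887, 3028, 2457, 2483 and 2731 at 0.54% CA. Its stained arrays read 278, 123, 306, 744, 102, 77 and 111 at 0.29% CA and 312, 246, 846, 210 and 582 at 0.54% CA. The groups did not overlap, although the lowest entire array, replicate 6 at 0.29% CA, came close to the highest stained one. The difference was 9.77-fold (log2 -3.29 ± 0.28, SE, limma adjusted p = 6.08e-09, n = 12 and 14).

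Among probe sets above the floor on all 26 arrays, m22359mrna_s_at fell the most, 15.9-fold (log2 -3.99 ± 0.54, SE, limma adjusted p = 3.47e-06, n = 12 and 14). Its entire arrays ran from 118 to 2638 with a median of 1280.5, and its stained arrays from 10 to 309 with a median of 73. The lowest 3 entire arrays were replicates 6 and 7 at 0.29% CA, at 191 and 403, and replicate 5 at 0.54% CA, at 118. Those 3 arrays also had the highest GAPDH ratios among entire sections, 2.65, 5.07 and 6.49. For m11710cds_s_at they read 855, 2287 and 2483 in the same order, and only the first lay below the other entire arrays. In the GAPDH-adjusted fit the difference of m22359mrna_s_at was -1.66 (limma adjusted p = 0.0719), and its call was lost, while the other 3 probe sets kept theirs. All 4 differed in the same direction in untreated liver, by 2.02 for rc_aa874941_at, 1.92 for x05472cds#3_f_at, -3.84 for m11710cds_s_at and -4.24 for m22359mrna_s_at, each called there (limma adjusted p from 1.32e-07 to 0.0182, n = 8 and 8).

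**Figure D2:**
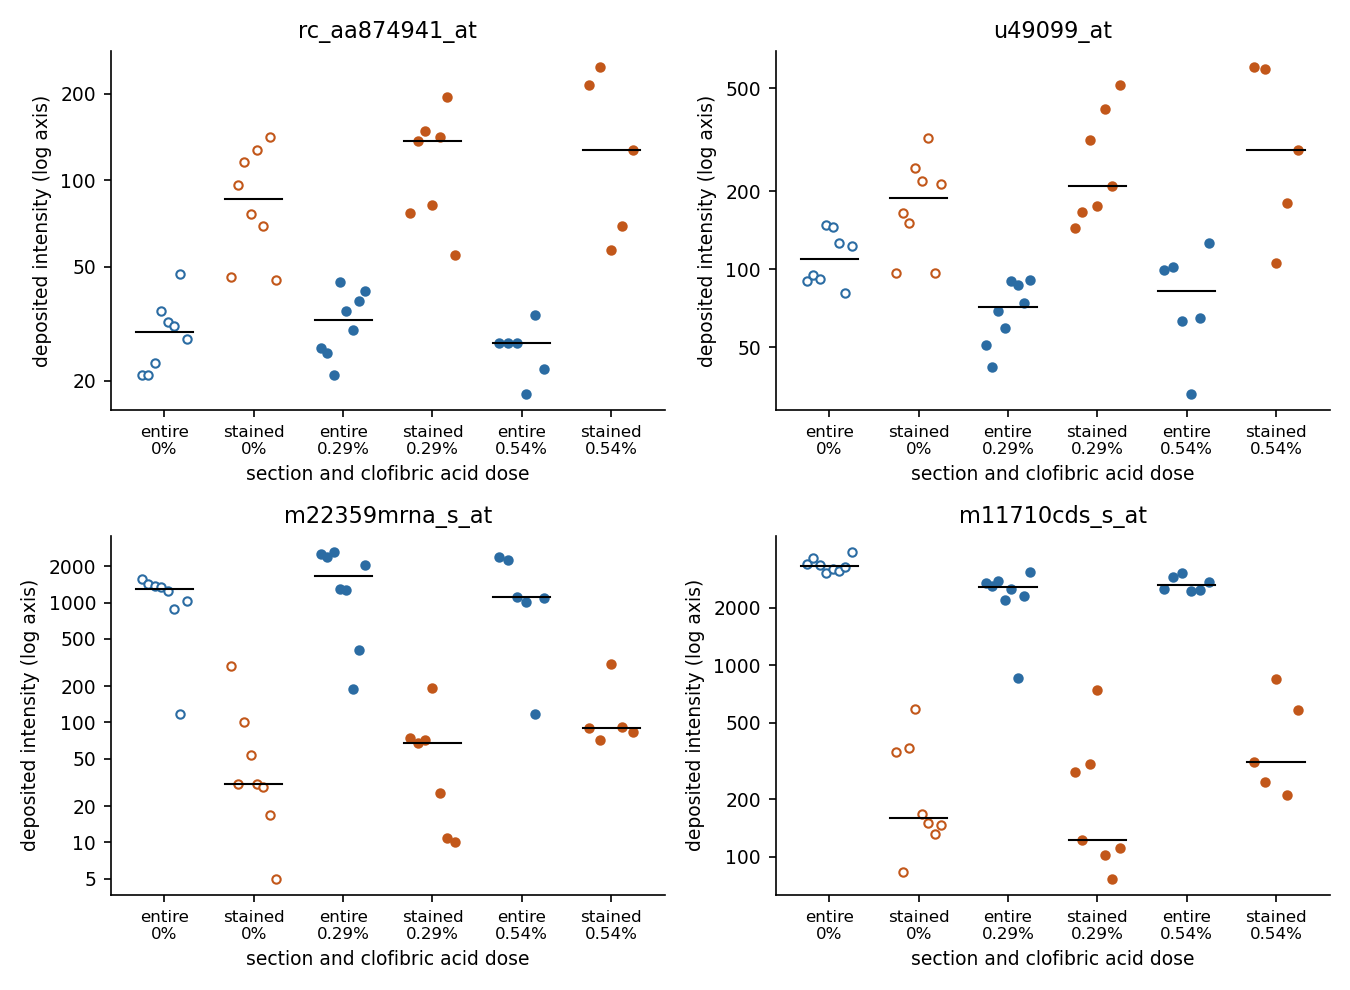
Deposited intensity of 4 probe sets on a log axis, 1 point per array, by section and CA dose, with group medians as bars and untreated liver as open points. The upper probe sets are higher and the lower ones lower in stained sections at both doses; entire replicate 6 at 0.29% CA is the low entire point of m11710cds_s_at.

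Few probe sets separated the preparations completely. On the normalized scale 34 probe sets were higher in every stained array than in every entire array and 55 were lower, together 1.12% of those tested, against 29.8% called. No probe set was above the floor on all arrays of 1 preparation and at the floor on all arrays of the other. There were 39 probe sets at the floor in every stained section and above it in at least 7 of 14 entire ones. The reverse, at the floor on all 14 entire arrays and above it on at least 6 of 12 stained arrays, held for 16. Of the 3115 probe sets above the floor on all 26 arrays, 1383 were called, 894 higher and 489 lower. The share called rose with signal, from 1.82% higher and 0.816% lower in the dimmest of 5 equal groups of probe sets to 31.4% and 22.2% in the brightest.

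The kind of sequence that a probe set was made from went with the direction of its difference. IDs carrying "cds", made from coding sequence, were called higher in 6.65% and lower in 28.5% of 571 tested, beside 16.2% and 13.6% of all probe sets. Among the 263 of them above the median level of all probe sets the shares were 9.13% and 49.4%, with a median difference of -0.59. Above the same level, where calls were more frequent in general, they were 30.2% and 11.5% for rc_ IDs and 21.1% and 21.8% for IDs with no tag. IDs carrying "utr", from untranslated regions, were called higher in 29.4% and lower in 5.88% of 68 tested. For the 34 of them above the median level the shares were 29.4% and 8.82%, near those of rc_ IDs above that level. IDs that begin with "rc_" numbered 3174 and were called higher in 21.2% and lower in 8.76%. IDs with "mrna" (248) gave 11.3% and 16.9%, IDs with "exon" (76) 15.8% each way, and the 3804 IDs with no such tag 13.6% and 15.2%. Median differences were -0.09 for cds, 0.29 for utr and 0.15 for rc_, beside 0.08 over all. On the centred deposited scale the cds shares were 24.7% higher and 26.3% lower, with a median that turned to 0.07, and the utr shares were 44.1% and 5.88%. So by median cds IDs stayed below and utr IDs above the other kinds on both scales, while the sign of the cds median did not hold. Above the median level, utr and rc_ IDs had like median differences, at 0.25 and 0.21.

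Untreated liver gave like shares, with 4.80% of cds IDs higher and 28.6% lower, and 23.9% of utr IDs higher and 2.99% lower. For 12 sequences the array carried both a cds and a utr probe set. The utr difference was above the cds difference in 10 of these 12, with a median gap of 0.58. The largest gap was at u75923, with 1.64 for utr and 0 for cds, and ab016161 went the other way, with 0.20 for utr and 0.51 for cds, while x03914 had 0.53 for both; these sequences were named after their values were seen.

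**Figure D3:**
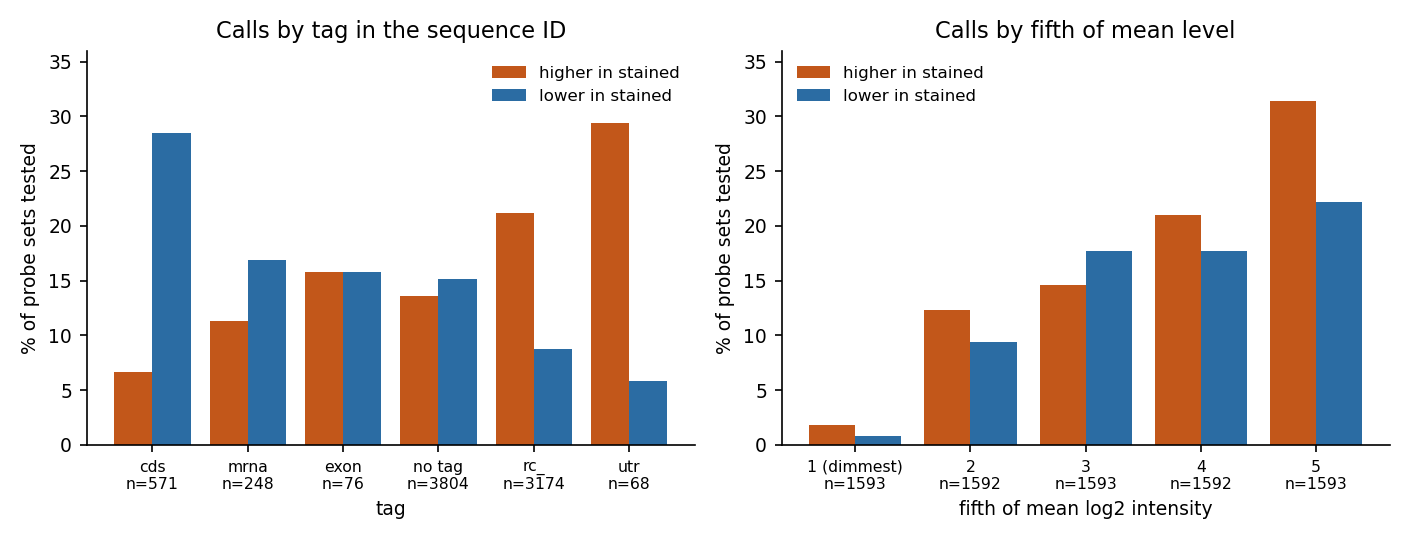
Share of probe sets called higher (orange) and lower (blue) in stained sections of treated liver, by the tag in the sequence ID (left) and by 5 equal groups of mean log2 intensity (right), with the number tested under each bar. cds IDs were lower in 28.5% and utr IDs higher in 29.4%, and the dimmest group was called in 1.82% and 0.816%.

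Probe sets of 1 and the same sequence ID could be set against each other. For 906 sequences the array held a probe set ending in _at and a second one ending in _g_at, and 793 of these pairs were tested. This comparison was added after seeing the data. Of the 793 _g_at members 246 were called higher (31%) and 95 lower, and of the _at members 78 higher and 206 lower (26%). Of all probe sets 16.2% were called higher and 13.6% lower. Probe sets ending in _g_at were also brighter, with a median log2 level of 5.41 against 3.81 for all those ending in plain _at, and calls rose with signal. Of the pairs, 70 had the _g_at member called higher and the _at member called lower after staining, and 11 had the reverse. Both members were called higher in 25 pairs and both lower in 40. These pair counts follow largely from how often each kind of member was called, so the ratio within a pair was tested instead. The median difference was 0.21 for _g_at members and -0.10 for _at members of the same sequences. The ratio of _g_at to _at, tested in limma with the same design, differed between preparations in 396 of 793 pairs, or 49.9%. It was higher after staining in 305 and lower in 91. Because the ratio is taken within an array, a common scale factor cancels, and on the centred deposited scale 413 ratios were called with the same 77.0% higher. Of 248 pairs with both members above the floor on all 26 arrays, the ratio was called higher in 153 and lower in 33, with a median difference of 0.74. In the GAPDH-adjusted fit 45 ratios were called, 33 of them higher.

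The median log2 ratio over those 248 pairs was 0.197, 0.213, 0.165, 0.311, 0.343, 0.768, 0.448 and 0.243 on the entire arrays at 0.29% CA and 0.341, 0.319, 0.205, 0.464, 0.460 and 0.190 at 0.54% CA. On the stained arrays it was 0.915, 1.165, 0.831, 0.640, 1.492, 1.728 and 0.960 at 0.29% CA and 0.889, 0.988, 0.509, 1.144 and 0.592 at 0.54% CA. Entire replicate 6 at 0.29% CA, at 0.768, was the only entire array within the range of the stained ones. The single treated dehydrated sections read 1.280 at 0.29% CA and 1.577 at 0.54% CA, microdissected liver 0.855 and 0.558, and the LCM-reference-time sections 0.455 and 0.574.

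Probe set pair rc_aa893242 showed the change in both directions at once. Its _g_at member fell from a median of 671.5 (221 to 965) to 99 (41 to 184) at 0.29% CA and from 410 (254 to 953) to 144 (116 to 205) at 0.54% CA, a log2 difference of -1.90 (limma adjusted p = 4.35e-06). Its _at member had medians of 211 in entire and 230 in stained sections at 0.29% CA and of 185.5 and 230 at 0.54% CA, and rose by 0.49 after normalization (limma adjusted p = 0.00208). The ratio had a median of 2.88 (1.07 to 5.60) in 14 entire and 0.522 (0.212 to 1.04) in 12 stained arrays, with no overlap, a log2 difference of -2.38 ± 0.29 (SE, limma adjusted p = 1.06e-06). Pair rc_ai014135 went the same way, at -3.04 ± 0.43 (SE, limma adjusted p = 4.33e-06). Its _at member rose by 2.28 (limma adjusted p = 0.00116), and the _g_at member's difference of -0.77 did not pass (limma adjusted p = 0.405).

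Pair rc_aa963674 had the largest rise in the ratio among the 248 pairs above the floor throughout, 2.59 ± 0.44 (SE, limma adjusted p = 4.03e-05). Its ratio ran from 3.08 to 12.4 in stained arrays and from 0.202 to 4.82 in entire arrays, where replicate 6 at 0.29% CA gave the highest value. The _g_at member rose by 0.88 (limma adjusted p = 1.52e-05) and the _at member fell by 1.72 on the log2 scale (limma adjusted p = 0.0027). Pair d13127 differed by 2.29 ± 0.40 (SE, limma adjusted p = 4.53e-05), with ratios from 3.02 to 115 in stained and from 0.844 to 3.37 in entire arrays. In the GAPDH-adjusted fit the differences of these 2 pairs were 0.82 (limma adjusted p = 0.334) and 1.73 (limma adjusted p = 0.0784), and both calls were lost. The other 2 pairs kept theirs.

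**Figure D4:**
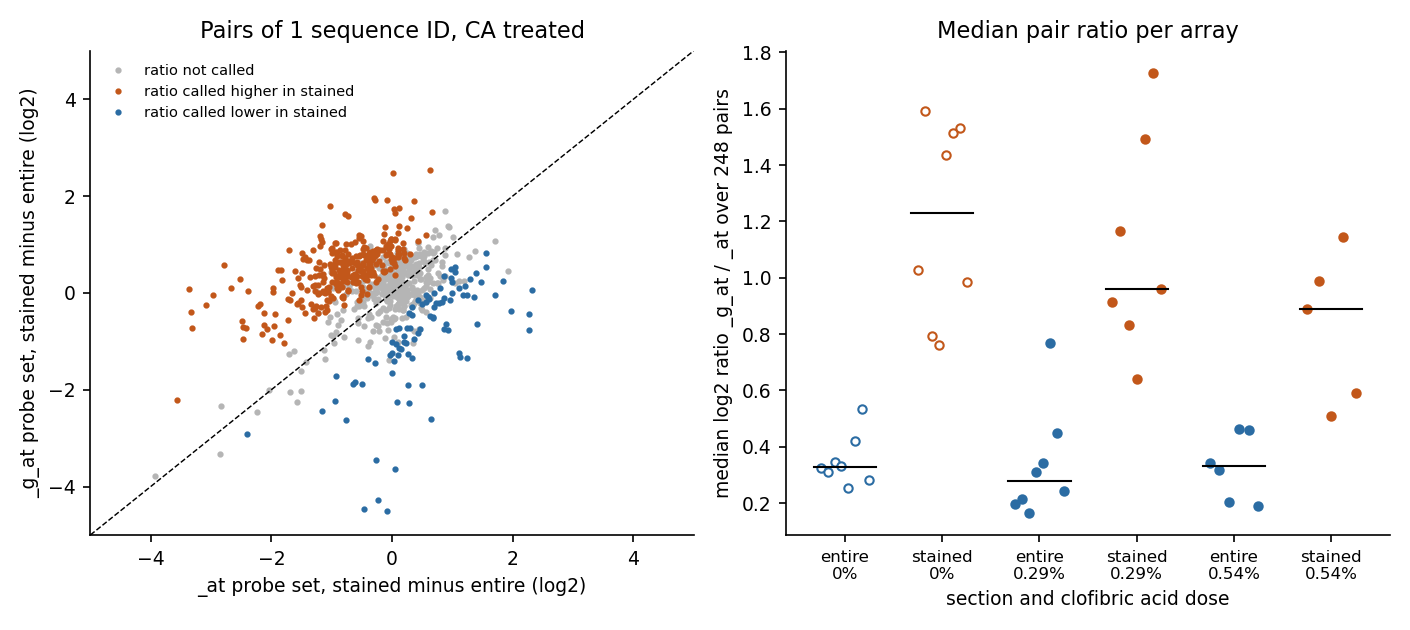
Left, stained minus entire log2 difference of the _g_at against the _at probe set of 793 sequence IDs in treated liver, coloured where the ratio was called, with equality dashed. Right, median log2 ratio of _g_at to _at over 248 pairs on each array, by section and dose, with group medians as bars; the stained arrays run from 0.509 to 1.728 and the entire treated arrays from 0.165 to 0.768.

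The calls of both doses never opposed each other. At 0.29% CA, 1860 probe sets differed between stained and entire sections (23.4%), 951 higher and 909 lower. At 0.54% CA, with fewer arrays and a median SE of 0.342 against 0.292, 765 differed (9.61%), 359 higher and 406 lower. Called at both doses were 257 higher and 329 lower and 0 in opposite directions, which is 76.6% of the calls at 0.54% and 31.5% of those at 0.29%. Of the calls at 0.29%, 95.4% had the same sign at 0.54%. On the centred deposited scale the share of higher calls was 68.1% of 2527 at 0.29%, against 51.1% here. At 0.54% it was 56.6% of 768, against 46.9% here, so the more frequent direction turned with the scale. In the GAPDH-adjusted fit the counts were 99 and 357.

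At 0.29% CA, among probe sets above the floor on all 26 arrays, the largest called rises were rc_ai014135_at and u49099_at and the largest falls m22359mrna_s_at and rc_ai070848_f_at. Probe set u49099_at read 144, 166, 317, 175, 415, 210 and 515 in stained and 51, 42, 69, 59, 90, 87, 74 and 91 in entire sections at that dose, with no overlap, a 4.68-fold rise (log2 2.23 ± 0.40, SE, limma adjusted p = 0.000304, n = 7 and 8). At 0.54% CA its difference was 2.12 (limma adjusted p = 0.00465, n = 5 and 6), and in untreated liver 1.14 (limma adjusted p = 0.00252, n = 8 and 8). Probe set rc_ai014135_at read 52, 59, 312, 109, 352, 18 and 590 against 9, 26, 29, 32, 32, 19, 56 and 75, so some stained arrays lay among the entire ones, with a difference of 2.41 ± 0.68 (SE, limma adjusted p = 0.0109). At 0.54% CA its difference of 2.09 did not pass (limma adjusted p = 0.102). Probe set rc_ai070848_f_at read 66, 87, 116, 309, 72, 24 and 42 in stained against 1938, 2016, 2178, 1163, 1187, 224, 440 and 1431 in entire sections, 11.5-fold lower (log2 -3.53 ± 0.55, SE, limma adjusted p = 7.23e-05). Its 2 lowest entire arrays were again replicates 6 and 7. In the GAPDH-adjusted fit none of these 4 passed at 0.29% CA, with differences of 1.65, 1.71, -1.88 and -1.17 for rc_ai014135_at, u49099_at, m22359mrna_s_at and rc_ai070848_f_at (limma adjusted p = 0.585, 0.189, 0.229 and 0.334).

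At 0.54% CA, among probe sets above the floor on all 26 arrays, the largest called changes were those of the probe sets named for both doses together, at 2.79 ± 0.54 for x05472cds#3_f_at, 2.53 ± 0.34 for rc_aa874941_at, -3.13 ± 0.81 for m22359mrna_s_at and -3.01 ± 0.43 for m11710cds_s_at (SE, limma adjusted p = 0.00132, 5.09e-05, 0.0148 and 6.76e-05, n = 5 and 6). In the GAPDH-adjusted fit m22359mrna_s_at lost its call, at -1.50 (limma adjusted p = 0.219).

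The test of the difference between the doses called 0 of 7963 probe sets (0%), with 408 at an unadjusted p under 0.05 and a smallest adjusted p of 0.392 in limma. The 95% interval of that difference, without adjustment for the number of tests, reached a median of 0.93 to either side on the log2 scale. A call needed an adjusted p under 0.05 over 7963 probe sets. For a typical probe set, differences between doses of that size and above it could therefore go uncalled. Without stained replicate 3 at 0.54% CA, 1 probe set was called.

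Most calls of treated liver were also made in untreated liver, which came from other arrays. In untreated sections 2179 of 7864 probe sets differed (27.7%), 1163 higher and 1016 lower. Among 7636 probe sets tested in both, 788 were called higher in both, 784 lower in both and 2 in opposite directions, which is 66.4% of the treated and 72.2% of the untreated calls. Of the treated calls 96.5% had the same sign in untreated liver, and of all 7636 probe sets 79.4% did. Across these probe sets, which are not independent replicates and share the scaling of the arrays, Pearson's r was 0.843 and Spearman's rho 0.766. The median size of the difference among probe sets called in treated liver was 0.88 in treated and 0.94 in untreated liver, and 59.7% of them were larger in untreated liver. Among probe sets called in untreated liver it was 0.80 in treated and 1.18 in untreated liver. Each set was chosen on 1 of the values compared. The ratio of _g_at to _at differed in 405 of 793 pairs in untreated liver (51.1%). Of the ratios called in treated liver 80.1% were called in the same direction in untreated liver, and of those called in untreated liver 78.3% were called so in treated liver, with 1 in opposite directions.

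**Figure D5:**
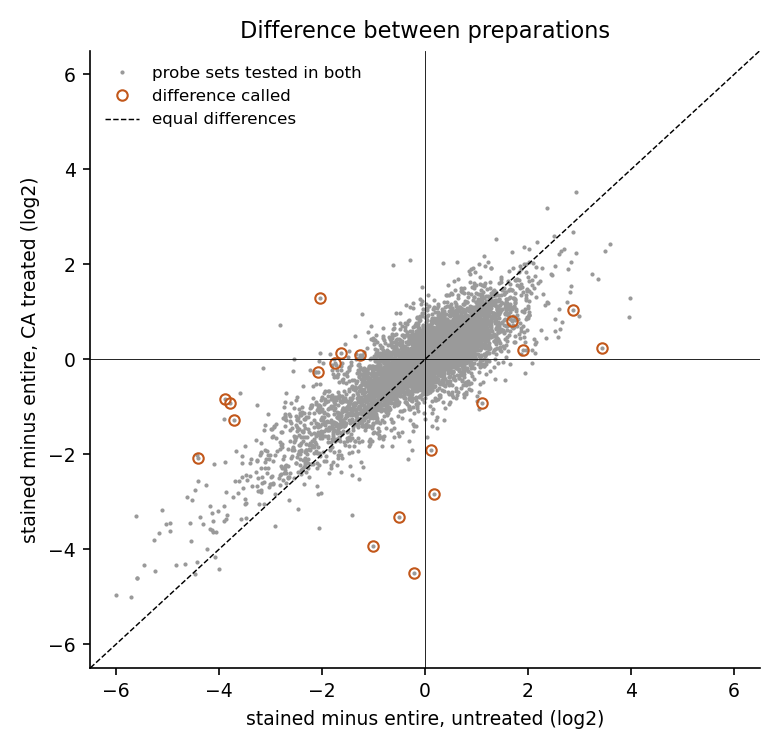
Stained minus entire log2 difference of each probe set tested in both, in untreated liver (x axis) and in treated liver (y axis), with equal differences dashed. Circles mark probe sets whose difference between treated and untreated liver was called; 19 of the 20 are shown, since 1 was not tested in untreated liver.

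The test of the difference between treated and untreated liver called 20 of 8191 probe sets (0.244%), 9 higher and 11 lower in treated liver, with 674 at an unadjusted p under 0.05. Of the 20, 5 were called in treated liver only, 8 in untreated liver only, 5 in both in the same direction and 2 in both in opposite directions. For 14 of the 19 tested in both, the difference was larger in untreated liver. At the floor on at least 1 of the 42 arrays were 19 of the 20, so their sizes depend on the floor. The smallest adjusted p were 5.03e-08 for ab005743_g_at (-3.89) and 5.23e-08 for rc_aa799326_s_at (-4.42, both limma), named after their values were seen. Both were at the floor on every stained array. Their mean intensities in entire sections were 132.7 and 256.2 at 0.54% CA, and -4.5 and -6.8 in untreated liver. The count of called probe sets was 47 with a floor of 20, 39 with array weights, 12 in the GAPDH-adjusted fit and 0 among probe sets with a mean above the 75th percentile. It was 12 without untreated entire replicate 2, and 13 without entire replicate 4 at 0.29% CA, without untreated stained replicate 2 or without stained replicate 4 at 0.29% CA.

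The only one above the floor on all 42 arrays was m14972_i_at. In untreated liver it had a median of 497 (389 to 838) in entire and 1332 (882 to 2201) in stained sections. At 0.29% CA the medians were 2725 (2205 to 3078) and 5300 (3665 to 6244), and at 0.54% CA 2650 (1983 to 3350) and 4673 (3882 to 5968). Stained arrays lay above entire arrays without overlap in untreated liver and at both doses. The rise after staining was 1.69 ± 0.21 (SE) in untreated and 0.81 ± 0.10 (SE) in treated liver on the log2 scale, a difference of -0.89 ± 0.20 (SE, limma adjusted p = 0.0463). That call was lost on the centred deposited scale (-0.69, limma adjusted p = 0.483) and under 6 of 13 further settings. Leaving out 1 array ended it in 27 of 42 cases (limma adjusted p up to 0.0955), with differences from -1.0 to -0.81.

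The 2 probe sets called in opposite directions were u33471_at and x68782cds_at, named after their values were seen. Probe set u33471_at had medians of 62.5 in entire and 9.5 in stained sections of untreated liver, but 14.5 and 29 at 0.29% CA and 25 and 28 at 0.54% CA. Its difference was -2.05 in untreated and 1.29 in treated liver, 3.30 ± 0.75 apart (SE, limma adjusted p = 0.0463). Probe set x68782cds_at had medians of 5.5 and 10 in untreated liver, 34.5 and 16 at 0.29% CA and 55 and 28 at 0.54% CA, and its differences of 1.11 and -0.91 were apart by -2.0 (± 0.46, SE, limma adjusted p = 0.0464). The groups overlapped in each case. Leaving out 1 array ended these calls in 26 and 29 of 42 cases. With a floor of 20 neither difference was called, at 1.48 (limma adjusted p = 0.155) and -0.56 (limma adjusted p = 0.495).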

How the data were processed

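The deposited table gives an intensity for each probe set on each array, and all are whole numbers. Which software and scaling the authors used to make these intensities is not given in the sources used here. Between 20.6% and 29.1% of the intensities of a treated array lay below 0. An array has no read depth, so the number of arrays limits the precision. Arrays were grouped by the labels, and the question, gene lists and settings were chosen with earlier results of these data known.

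Intensities were raised to a floor of 4 and quantile normalized on the log2 scale over all 52 arrays. Probe sets other than controls were tested if 1 or more arrays of a fit exceeded the floor, with limma 3.58.1 in R 4.3.3 (lmFit, eBayes), with Benjamini-Hochberg adjustment over all of them. The procedure was tested on simulated data. Quality measures were compared by exact permutation within dose (Python 3.11.15, NumPy 2.4.6), and the levels of single control rows joined that family after seeing the data. Plots were drawn with matplotlib 3.10.9. The deviations of same-numbered stained and entire arrays correlated at r from -0.126 to 0.325 over 12 pairs, with 4 over 0.1. The same number gave the best correlation in 6 of the 12. The labels state no pairing, so the main fits used none, and a fit with a replicate block is among the alternatives below. Whether the numbers mark a shared liver or run was not tested. The highest correlation between any pair of the 26 arrays was 0.979, so none was an exact copy of another. That check cannot tell whether 2 arrays came from 1 liver.

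Gene lists and cell type markers had been set by symbol and could not be used without gene names. In their place up to 2 probe sets with the largest called rise and 2 with the largest fall, above the floor on all 26 treated arrays (all 42 where untreated liver was compared), are named by ID; the limit to probe sets above the floor was added after seeing the data. Alternatives were the deposited scale centred on each array's median, other normalization sets and orders, a floor of 20, filters, all groups in 1 fit, a trended robust prior, array weights, a replicate block, a 2-fold minimum, the GAPDH ratio as a covariate, leaving out 6 arrays (entire sections with a GAPDH ratio above 4 and stained sections with a 5S signal above 200), and leaving out each array. The comparison of paired probe sets and the fit without 3 arrays were added later.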

Additional observations from a re-analysis of the deposited data

Results flagged for a closer look

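In groups of 4 to 10 arrays, the highest or lowest array was set against its nearest neighbour by Dixon's criterion at 95%, in 100 groups, and 11 values passed, where about 1 in 20 does so by chance. Numbers in brackets are the gap divided by the range of the group.

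Stained replicate 7 at 0.29% CA stood apart in 5 measures. Its 5S rRNA signal was 8.83 on the log2 scale against 5.84 for the next array (0.604), its 50 brightest probe sets took 34.3% of the signal against 24.6% (0.591), and its mean intensity was 132 against 169 (0.588). Its bioB signal was 10.58 against 8.17 (0.568) and its bioC signal 11.50 against 9.76 (0.594). Entire replicate 6 at 0.54% CA had 24.2% of the signal in its 50 brightest probe sets against 16.01% (0.678).

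Entire replicate 6 at 0.29% CA was lowest in 3 log2 levels: 3' beta-actin at 8.13 against 9.58 (0.636), middle hexokinase at 3.31 against 4.62 (0.562) and m11710cds_s_at at 9.50 against 11.03 (0.773). For m22359mrna_s_at, entire replicate 5 at 0.54% CA was low at 6.55 against 9.71 (0.676), and stained replicate 3 at 0.54% CA was high at 7.95 against 6.46 (0.790).

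The test of the difference between treated and untreated liver in the stained minus entire contrast passed, among others, for m14972_i_at (-0.89), u33471_at (3.30) and x68782cds_at (-2.0). Their values by array group stand with the comparison of treated and untreated liver.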

How the results depend on the processing

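Counts of calls moved by over 1.5 times under a few settings. For treated liver they were 1308 with a mean above the 75th percentile, 987 with a 2-fold minimum and 468 in the GAPDH-adjusted fit. At 0.29% CA they were 1173, 1102 and 99 in the same order. The 1308 and 1173 calls were out of 2347 probe sets tested, against 7963 in the main fit, and so are a larger share. At 0.54% CA the counts were 500 with the 2-fold minimum and 357 in the adjusted fit. The difference between doses went from 0 to 1 with a floor of 20 and with no filter. The difference between treated and untreated liver was 47 with a floor of 20, 0 above the 75th percentile, 39 with array weights and 12 in the adjusted fit. For paired probe sets, the adjusted fit left 45 ratios, and their difference between treated and untreated liver, 0 of 826 in limma with 71 at an unadjusted p under 0.05, was 2 on the centred deposited scale, with a floor of 20, with the replicate block and without the 6 arrays, and 1 in the adjusted fit. With dose by replicate number as a replicate block the counts were 2235 for both doses, 1783 and 647 for each dose, 0 between doses, 14 for treated against untreated and 387 for the ratios; not every pair correlated over 0.1, and the same number gave the best correlation in 6 of 12. Leaving out 1 array gave 2196 to 2547, 1569 to 2122, 518 to 892, 0 to 1, 12 to 25, 373 to 417 and 0 to 1 calls in the same order, the last for the difference in ratios. It gave 1.60 to 1.82 for the log2 GAPDH ratio, 1.45 to 1.68 for beta-actin, 0.23 to 0.70 for 5S rRNA, -3.82 to -3.04 points for the share above the floor, 3.83 to 5.64 points for the 50 brightest and -2.71 to 3.27 for the mean intensity, whose sign turned without entire replicate 3 (0.10) or stained replicate 7 (3.27) at 0.29% CA.

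The 14 named probe sets and pairs, without ab005743_g_at and rc_aa799326_s_at, had 798 values under 15 alternatives and with single arrays left out. Of these, 689 kept direction and call, 109 lost the call and 0 changed direction. The causes were not tested. The alternatives for gene lists and for genes by symbol were not run, for want of gene names. Over the 26 arrays, 34.4% of intensities lay at or under the floor, and a fold of such probe sets depends on it.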
